A study of Arabidopsis thaliana with 12 samples.

Results

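Of the 33323 nuclear genes counted over their whole length, 3424 (10.3%) had no window around the transcription start site (TSS) in the same libraries, and these 3424 genes are described here. They were found by comparing gene identifiers: a member is listed in the whole-gene files and absent from the TSS files. The gene-body files hold the same 29899 nuclear identifiers as the TSS files, so whole-gene reads are the only measurement of these members. Of the 3424 members, 3036 were matched to a RefSeq gene record, which gave 1513 protein coding genes, 623 tRNA genes, 621 pseudogenes, 168 microRNA (MIR) genes, 70 small nucleolar RNA (snoRNA) genes, 36 other non-coding RNA genes, 3 spliceosomal small nuclear RNA (snRNA) genes and 2 rRNA genes. The other 388 identifiers were unmatched. All 623 tRNA genes, 98.6% of the snoRNA genes and 94.4% of the MIR genes of the whole-gene files were members, against 5.67% of the protein coding genes. What bounds the windows had is not given in the sources used, and no gene lengths of the files' build were used, so the members are called genes without a TSS window rather than short genes.

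Occupancy of RNA polymerase II (Pol II) was read out by sequencing immunoprecipitated chromatin of Arabidopsis thaliana seedlings, ecotype Columbia, 10 days old. All plants were of the tfIIs-1 (SALK_056755) background, an insertion in the gene of the elongation factor TFIIS, and carried an inducible GFP fusion of that factor. Plants were given 2 mM β-estradiol (induced) or ethanol (mock) for 24 h. An antibody against the serine 2 phosphorylated (S2P) or the serine 5 phosphorylated (S5P) polymerase was used, which with the treatment made 4 groups of 3 libraries. By their labels, the S2P plants were induced for GFP-TFIIS and the S5P plants for GFP-TFIISmut, so the effects of antibody and of induced protein cannot be told apart. Neither can a response to estradiol itself. The series title speaks of TFIISmut alone, so which protein the S2P plants made is in doubt, and the labels of the mock libraries name no protein. No wild-type plants and no input chromatin were used here.

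Pol II transcribes protein coding genes, MIR genes, most spliceosomal snRNA genes and snoRNA genes, and the phosphorylation of its C-terminal domain changes along a gene: serine 5 is marked mostly near the start and serine 2 mostly during elongation. Nuclear tRNA genes are transcribed by RNA polymerase III, which lacks that domain, so reads on a tRNA gene in these libraries lie on a gene that Pol II is not known to transcribe as its own unit. Many short protein coding genes of plants encode secreted signalling peptides, defensin-like peptides or the auxin-responsive SAUR proteins.

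Depth limited what could be seen. Nuclear whole-gene reads ranged from 115868 to 2537034 per library, so 3 reads corresponded to between 1.18 and 25.9 counts per 1000000 nuclear whole-gene reads (CPM). The members at 0 were 12.9% of the 3424 in the deepest library, S2P mock 3, and 80.8% in the shallowest, S5P induced 2. Between 12 and 885 members had at least 10 reads in a library. TFIIS itself, which the transgene carries, stood at 18.8, 67.7 and 57.9 CPM in S2P mock and 93.9, 125 and 61.8 CPM in S2P induced. With S5P it stood at 58.9, 46.9 and 47.7 CPM in mock and 156, 43.2 and 179 CPM in induced libraries. S2P induced 3 and S5P induced 2 thus lay within or below the range of their mock libraries, on 13 and 5 reads. Alignments outside annotated genes were 16.1% to 38.6% of the counted alignments, with S5P induced 3 lowest and S5P induced 2 highest. Markers of green tissue, 6 genes, summed to 297 to 1013 CPM, and 7 seed, pollen and flower genes to 43.2 to 141 CPM.

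Most members were sparsely covered. Summed over the 12 libraries, the members held 125096 reads, with a median of 23 per gene, against a median of 223 for the 29899 genes with a TSS window. No read was found on 342 members (9.99%), against 1.98% of the other genes. A further 354 members had 1 to 9 reads, 2533 had 10 to 99, 191 had 100 or more but under 1000, and 4 had at least 1000. The 10 members with the most reads held 9.56% of all member reads and the 100 with the most 26.7%. A gene without reads in all 12 libraries is not shown to be free of polymerase at this depth.

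**Figure D1:**
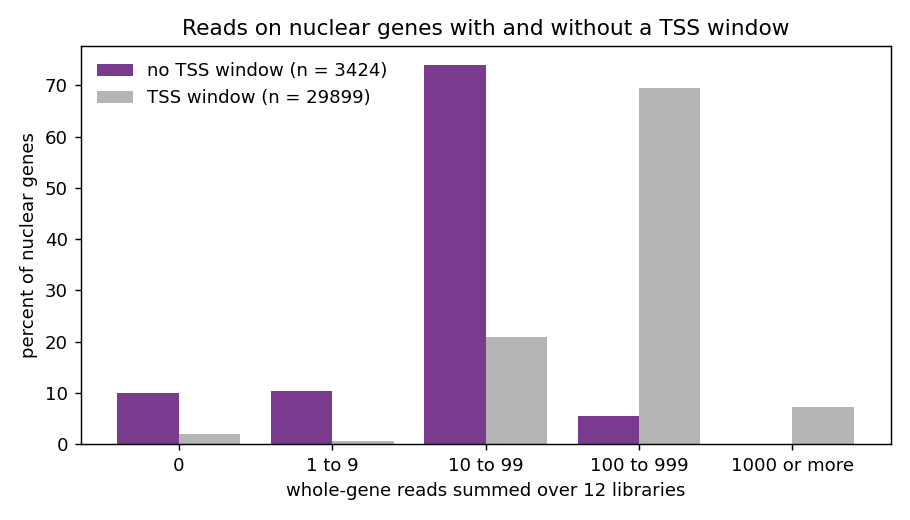
Percent of nuclear genes (vertical axis) by the number of whole-gene reads summed over 12 libraries (horizontal axis), for the 3424 genes without and the 29899 genes with a TSS window. Most genes without a window (74.0%) had 10 to 99 reads, while 69.4% of the other genes had 100 or more but under 1000.

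The classes differed in how many genes had no read at all. Among tRNA genes, 137 of 623 (22.0%) had none, against 113 of 1513 protein coding members (7.47%), 45 of 621 pseudogenes (7.25%), 25 of 168 MIR genes (14.9%), 10 of 70 snoRNA genes (14.3%) and 5 of the 388 unmatched identifiers (1.29%). The median over the 12 libraries was highest for the snRNA genes with 131 reads and the snoRNA genes with 73.5, and lowest for the tRNA genes with 9. These counts are not scaled to gene length and so do not rank the classes by occupancy.

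The tRNA genes without a read were concentrated in 3 amino acids. Of the 75 tyrosine tRNA genes 52 had no read, of the 64 serine tRNA genes 33, and of the 66 proline tRNA genes 19. Together these made 104 of 205 (50.7%), against 33 of 418 (7.89%) for all other amino acids. No isoleucine or threonine tRNA gene, of 22 and 24, was without a read. Position in the annotation went with the same difference: 96 of 158 tRNA genes with another tRNA gene as the next annotated gene on at least 1 side (60.8%) had no read, against 41 of 465 (8.82%) of those with no tRNA neighbour. Within tyrosine, 50 of 57 genes next to a tRNA gene had none, against 2 of 18 that were not, and within serine 28 of 29 against 5 of 35. Proline genes did not split in that way, with 13 of 41 against 6 of 25.

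Near-identical genes can lose reads in counting. In no library did the counter list an alignment as not unique (0), while alignments below its quality limit were 18.5% to 56.1% of all aligned reads. Near-identical copies, such as repeated tRNA genes, are therefore uncertain in their counts, and the part of this filter in the zeros was not tested. Ambiguous alignments, which touch more than one gene, were 1.43% to 2.37%. Of the 402 members that overlap another listed gene in the RefSeq table, 159 (39.6%) had no read, against 178 of 2634 (6.76%) that overlap none. The 132 MIR genes that overlap no listed gene all had a read, whereas 25 of the 36 that do overlap one had none. For snoRNA genes the same counts were 1 of 60 without overlap and 9 of 10 with it.

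The share of nuclear reads on members was compared first, to ask whether induction or antibody moved reads onto these genes as a whole. It was 1.21%, 1.34% and 1.17% in S2P mock and 1.27%, 1.01% and 1.43% in S2P induced. With S5P it was 1.17%, 1.31% and 1.05% in mock and 1.03%, 1.72% and 0.814% in induced libraries. The induced libraries lay on both sides of the mock libraries for each antibody. Group means were 1.24% ± 0.0913 and 1.24% ± 0.209 for S2P, and 1.18% ± 0.131 and 1.19% ± 0.473 for S5P (SD, n = 3). The differences of -0.0043 and 0.0112 percentage points had exact two-sided permutation p-values of 1, where 0.1 is the smallest that 3 against 3 libraries allow. In mock plants the S5P minus S2P difference was -0.0642 percentage points (exact two-sided permutation p = 0.5). Same-numbered mock libraries were taken as paired, and S5P was the lower in 3 of 3 pairs, with an exact paired permutation p of 0.25, the smallest that 3 pairs allow.

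**Figure D2:**
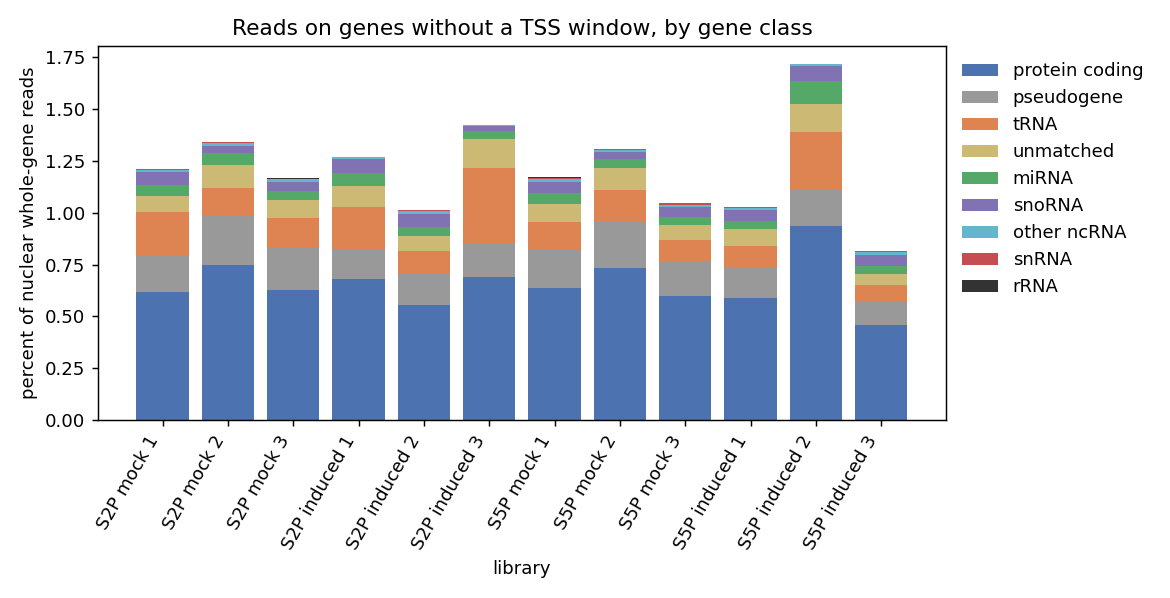
Percent of nuclear whole-gene reads on genes without a TSS window (vertical axis) in each of the 12 libraries (horizontal axis), stacked by gene class. Bars run from 0.814% in S5P induced 3 to 1.72% in S5P induced 2, and protein coding genes make up the largest block in every library.

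The share of reads on members followed the share of alignments outside genes. Over the 12 libraries Pearson's r was 0.991 and Spearman's rho 0.993, each with a permutation p of 1e-05, the smallest that 100000 resamples can give. Adjusted over the 7 relations computed, for all members and 6 classes, the p-values were 3.5e-05 for r and 7e-05 for rho. Without the 2 libraries farthest from the median, r was 0.980. Among the 6 S2P libraries r was 0.992 and among the 6 S5P libraries 0.996 (exact permutation p = 0.00139 each, rho = 1 with p = 0.00278 each). The 2 measures share gene reads in their denominators, and both are shares of the same library. The relation held for protein coding members (r = 0.948), tRNA genes (r = 0.820) and unmatched identifiers (r = 0.956), with adjusted permutation p-values of 7e-05, 0.00208 and 3.5e-05. For MIR genes r was 0.706 (adjusted permutation p = 0.0181) but 0.149 without the 2 farthest libraries, so it rests on those. Pseudogenes (r = 0.451, adjusted permutation p = 0.164) and snoRNA genes (r = -0.0837, adjusted permutation p = 0.795) gave no relation past 0.05. Without the 2 farthest libraries r was 0.370 for pseudogenes but -0.614 for snoRNA genes, so the snoRNA value near 0 rests on those libraries.

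**Figure D3:**
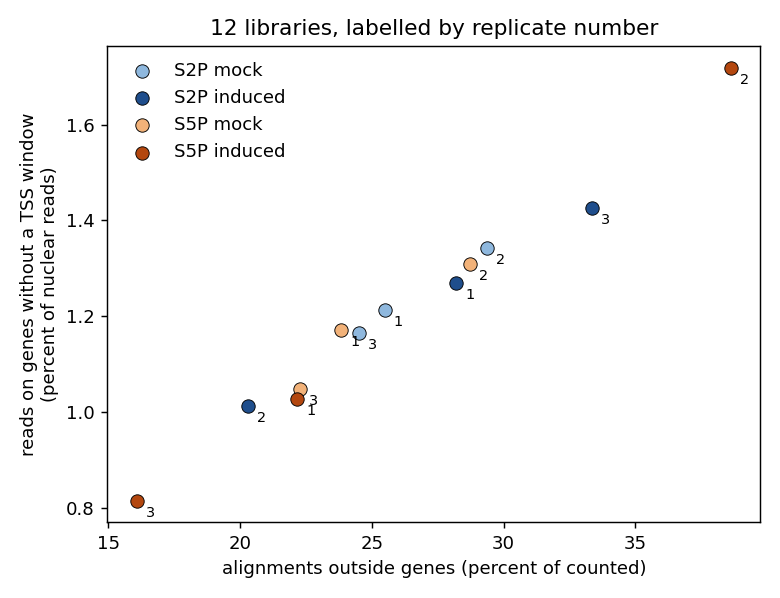
Percent of nuclear reads on genes without a TSS window (vertical axis) against the percent of counted alignments that lie outside genes (horizontal axis), 1 point per library with its replicate number. The 12 points lie close to a line from S5P induced 3 (16.1%, 0.814%) to S5P induced 2 (38.6%, 1.72%), and the 4 groups are mixed along it.

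Single members showed the same pattern more often than other genes of like coverage. Of the 191 members with 100 or more but under 1000 reads, 75 (39.3%) had a rank correlation above 0.5 with the outside-gene share over the 12 libraries and 32 (16.8%) had one below -0.5. Among 20743 genes with a TSS window and the same range of reads, 10.8% lay above 0.5 and 25.6% below -0.5. The medians were 0.22 and -0.20. All these correlations use the same 12 libraries and are given as a description.

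Protein coding members made up the largest block of reads. Their share of nuclear reads was 0.664% ± 0.0714 in S2P mock and 0.642% ± 0.0754 in S2P induced, and 0.655% ± 0.0692 and 0.661% ± 0.248 in S5P mock and induced. Pseudogene members held 0.202% ± 0.0327 in S2P mock and 0.154% ± 0.00904 in S2P induced, and here the groups did not overlap (0.171% to 0.236% against 0.147% to 0.164%). With S5P the pseudogene share was 0.192% ± 0.0275 in mock and 0.147% ± 0.0292 in induced libraries, and the groups overlapped. The tRNA share was 0.165% ± 0.0412 and 0.225% ± 0.128 with S2P, and 0.131% ± 0.0290 and 0.153% ± 0.107 with S5P, with overlapping groups for both. The snRNA share, on 345 reads in all, was lower in induced libraries without overlap for both antibodies. So was the rRNA share with S5P, on 114 reads in all 12 libraries. All other class shares overlapped between the groups compared. No test was made of the shares of single classes.

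Next the 20 members with the highest mean CPM were examined library by library. They comprise 10 protein coding genes, 6 tRNA genes, 2 MIR genes, 1 snoRNA gene and 1 unmatched identifier, with means of 38.6 to 232 CPM on 248 to 2404 reads. CPM here compares libraries, not genes, since it is not scaled to length. They varied by 5.79 to 66.9 times between their highest and lowest library. Of the 20, 10 were highest in S5P induced 2 and 8 in S2P induced 3, the 2 libraries with the most alignments outside genes, and 13 were lowest in S5P induced 3. They held 25.2% of member reads in S2P induced 3 and 6.70% in S5P induced 3. A rank correlation above 0.5 with the outside-gene share was found for 17 of the 20 and one below -0.5 for 1. The 20 were chosen on mean CPM, to which a few reads in a shallow library add much. For example, AT5G18403 ranked 14 on 346 reads, with 319 CPM from 37 reads in S5P induced 2. These counts by library and of rank correlations are therefore partly set by the choice and describe the list only.

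**Figure D4:**
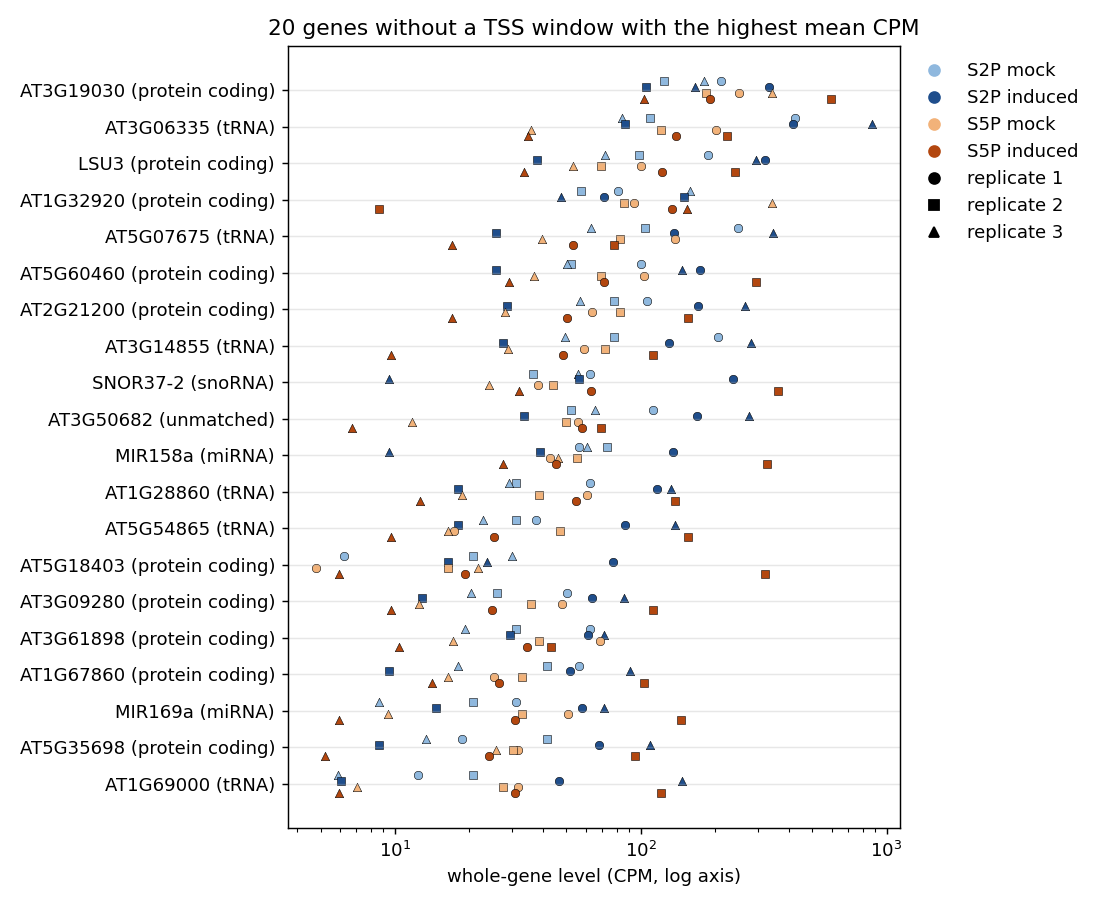
Whole-gene level in CPM (horizontal log axis) of the 20 genes without a TSS window with the highest mean CPM (vertical axis, with gene class), 1 symbol per library coloured by group. Most genes are lowest in S5P induced 3 and highest in S5P induced 2 or S2P induced 3, while AT1G32920 is lowest in S5P induced 2 at 8.63 CPM (1 read).

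AT3G19030, a protein coding gene, had the most reads of any member, 2404. Its level was 213, 125 and 181 CPM in S2P mock and 331, 105 and 166 CPM in S2P induced. With S5P it was 251, 185 and 341 CPM in mock and 191, 596 and 103 CPM in induced libraries. Mock and induced libraries overlapped for both antibodies.

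AT1G32920, also protein coding, ran the other way across libraries, with a rank correlation of -0.85 with the outside-gene share. It stood at 81.3, 57.3 and 158 CPM in S2P mock and 70.9, 150.4 and 47.5 CPM in S2P induced. With S5P it stood at 93.9, 85.4 and 342 CPM in mock and at 134, 8.63 and 155 CPM in induced libraries. The 8.63 CPM was 1 read. Replicate 3 was the highest mock library for both antibodies.

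LSU3 (AT3G49570) belongs to a small family named for its response to low sulfur. Its level was 188, 98.9 and 71.7 CPM in S2P mock, 321, 38 and 295 CPM in S2P induced, 100.2, 68.9 and 53.2 CPM in S5P mock and 122, 242 and 33.5 CPM in S5P induced. SAUR7 (AT2G21200), an auxin-responsive gene, gave 106, 78.1 and 56.8 CPM, then 171, 28.5 and 266 CPM, then 63.6, 82.7 and 28.2 CPM, and last 50.3, 155 and 17.1 CPM in the same order of groups. S5P induced 3 was the lowest of the 12 libraries for both genes, and mock and induced libraries overlapped.

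The proline tRNA gene AT3G06335 was the best covered gene of the Pol III class, with 1797 reads. It stood at 425, 109 and 84.4 CPM in S2P mock and 418, 86.5 and 874 CPM in S2P induced. With S5P it stood at 202, 121 and 36.0 CPM in mock and 139, 224 and 35.0 CPM in induced libraries. The value of 874 CPM came from 184 reads. The next tRNA genes, AT5G07675 (alanine), AT3G14855 (cysteine), AT1G28860 (proline), AT5G54865 and AT1G69000 (both methionine), had means of 111, 91.8, 59.5, 50.5 and 38.6 CPM. Their rank correlations with the outside-gene share lay between 0.66 and 0.87.

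Among snoRNA genes, whose products guide modification of rRNA, SNOR37-2 (AT4G15258) was the best covered with 877 reads. Its level was 62.5, 36.4 and 55.6 CPM in S2P mock and 237, 56.2 and 9.50 CPM in S2P induced. With S5P it was 38.2, 44.1 and 24.3 CPM in mock and 63.1, 362 and 32.0 CPM in induced libraries. The induced libraries spread over a far wider range than the mock libraries with both antibodies. SNOR105, SNOR30 and AT1G74453 followed with 158, 160 and 162 reads.

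MIR158a (AT3G10745) and MIR169a (AT3G13405), the latter a precursor gene of a microRNA that targets NF-YA transcription factors, led the MIR genes. MIR158a stood at 56.3, 72.9 and 60.7 CPM in S2P mock, 135, 38.9 and 9.50 CPM in S2P induced, 43.0, 55.1 and 46.2 CPM in S5P mock and 45.5, 328 and 27.6 CPM in S5P induced. The mock libraries lay close together and the induced libraries reached above and below them, except that S5P induced 1 (45.5 CPM) lay among the mock values. The 9.50 CPM was 2 reads. MIR390b (AT5G58465), whose microRNA triggers the making of small RNAs from TAS3, was at 6.25, 31.2 and 42.6 CPM in S2P mock and at 0, 2.76 and 6.26 CPM in S5P mock. In induced libraries it was at 41.8, 11.2 and 0 CPM with S2P and at 6.67, 86.3 and 2.98 CPM with S5P, so no order of the antibodies held across treatments. It held 231 reads, of which 108 came from S2P mock 3.

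Families were taken from gene symbols and synonyms only, so genes without a matching name are not counted. The peptide families so found were covered thinly but completely, since none of their members was without a read. The 25 SAUR members held 1762 reads, the 63 defensin-like and cysteine-rich peptide genes 2296, the 48 genes of signalling peptides 2015 and the 6 arabinogalactan peptide genes 343. The best covered of them after SAUR7 were LCR44 (32.0 CPM on average), CLE8, known for a role in seed development (26.5 CPM), the ROTUNDIFOLIA-like gene RTFL12 (18.8 CPM), LCR35 (14.7 CPM) and AGP21 (11 CPM). RTFL12 was high in S2P mock 3 (41.8 CPM) and S5P mock 3 (71.2 CPM) and at 0 to 22.1 CPM in the other 10 libraries. TOM7-2 was the single member among the small mitochondrial membrane protein genes found by name, on 77 reads.

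Induction was then tested gene by gene, to ask which members gained or lost polymerase when the TFIIS fusion was induced. Few members could be tested: 105 of 3424 passed the filter on low counts with S2P and 153 with S5P, and a member can pass only where enough libraries hold reads. A member that passes only through the libraries of a single group has its direction and lack of overlap set by the filter. With edgeR's quasi-likelihood test no member had an adjusted p under 0.05 for S2P, where 0.016% of all genes tested did, or for S5P, where the share was 0%. At an unadjusted p under 0.05, 22 of 105 members were found with S2P, against 7.65% of all genes. Of these 20 were higher and 2 lower in induced libraries, against 5.19% and 2.46% of all genes. That excess was seen only among members that passed the filter: without it, 220 of 3065 members had an unadjusted p under 0.05 with S2P, against 7.19% of all genes, and 185 of 3060 with S5P, against 6.58%. With S5P they were 18 of 153, against 7.51% of all genes, with 11 higher and 7 lower, against 4.32% and 3.19%. DESeq2 called 0 and 1 members for S2P and S5P, among 42 of 18798 and 92 of 21954 genes, and limma voom 0 and 0, among 1 and 0 genes. Mock and induced libraries did not overlap for 9 members with S2P, against 12.7% of all genes, 2 of them higher and 7 lower, against 3.41% and 9.31%. With S5P they did not overlap for 13 members, against 16.6% of all genes, 4 of them higher and 9 lower, against 2.95% and 13.7%.

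The counts with S2P depended on single libraries. Without S2P induced 2, the library of its group with the fewest alignments outside genes (20.3%), 12 of the 26 members then tested passed the adjusted threshold, all higher. The whole fit moved with that library, since 526 of 6849 genes were called and 29.3% had an unadjusted p under 0.05. Among the 12 were SAUR7, LSU3, MIR169a, LCR44 and the tRNA genes AT5G54865 and AT1G28860. Of these, MIR169a, LCR44 and AT5G54865 passed the filter in that fit only through the induced libraries, so their direction follows from the filter. Without S2P induced 3 (33.3% outside genes) 2 of 335 members passed, AT3G46080 and AT5G24640, among 40 of 25062 genes. AT5G24640 passed the filter in that fit only through the induced libraries. The part of the outside-gene share in these values was not tested here beyond a fit that holds it as a covariate, which was added after the data were seen. That fit called 6 members with S2P (5 higher, 1 lower) among 204 of 18798 genes, and 11 with S5P (6 higher, 5 lower) among 768 of 21954 genes.

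AT3G46080, a protein coding gene, had the smallest p of all members with both antibodies. It stood at 0, 10.4 and 8.67 CPM in S2P mock and 38.8, 45.8 and 23.8 CPM in S2P induced. With S5P it stood at 7.96, 5.51 and 22.7 CPM in mock and 64.3, 60.4 and 40.2 CPM in induced libraries. Every induced library lay above every mock library for each antibody, 3 of 3 in both. With S2P it passed the filter only through the induced libraries, so there the separation follows from the filter. The log2 fold change was 2.42 (SE 0.45) with S2P and 2.03 (SE 0.49) with S5P, at adjusted p-values of 0.126 and 0.331 in edgeR's quasi-likelihood test. The fits that gave it an adjusted p, main fit included, were 13 with S2P and 17 with S5P. Across these the adjusted p ran from 0.00507 to 0.801 with S2P and from 0.00299 to 0.989 with S5P, and the direction held in all of them. Some alternatives with S2P gave it no adjusted p.

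AT2G41730 and AT5G57510, both protein coding, were also among the 5 members with the smallest p in the higher direction for each antibody. AT2G41730 stood at 18.8, 26 and 9.85 CPM in S2P mock, 45.4, 64.8 and 19 CPM in S2P induced, 9.55, 30.3 and 14.9 CPM in S5P mock and 75.8, 8.63 and 82.7 CPM in S5P induced. The 2 low induced values, in the same libraries where TFIIS was low, rested on 4 reads and 1 read. Its log2 fold changes were 1.93 (SE 0.47) and 2.08 (SE 0.52), with edgeR adjusted p-values of 0.231 and 0.357. AT5G57510 rested on 159 reads, with log2 fold changes of 1.66 (SE 0.47) with S2P and 1.89 (SE 0.56) with S5P and edgeR adjusted p-values of 0.349 and 0.525. With S5P it passed the filter only through the induced libraries.

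AT1G03660 and AT4G08555, protein coding as well, complete the set for S2P. AT1G03660 was at 0, 20.8 and 3.55 CPM in S2P mock and 24.8, 37.2 and 19 CPM in S2P induced, a log2 fold change of 2.66 (SE 0.57, edgeR adjusted p = 0.175). With S5P it was too sparse to pass the filter, at 4.77, 2.76 and 1.57 CPM in mock and 39.4, 8.63 and 39.5 CPM in induced libraries. The groups did not overlap, but the 8.63 CPM was 1 read, against 3, 1 and 2 reads in mock. AT4G08555 gave 0, 20.8 and 12.2 CPM in S2P mock and 43.6, 51.9 and 19 CPM in S2P induced (log2 fold change 1.96, SE 0.48, edgeR adjusted p = 0.227). With S5P its log2 fold change was 1.27 (SE 0.46, edgeR adjusted p = 0.608). The 2 comparisons share no library, but the interaction term, which tests their difference, gave no adjusted p under 0.05 for any of these genes.

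In the lower direction, the pseudogene AT2G23808 had the smallest p with S2P. It stood at 31.3, 26 and 72.5 CPM in mock and 16.4, 17.3 and 9.50 CPM in induced libraries, without overlap, a log2 fold change of -1.55 (SE 0.42, edgeR adjusted p = 0.312). The protein coding gene AT1G05575 stood at 31.3, 26 and 20.9 CPM in S2P mock and 4.24, 15.6 and 0 CPM in S2P induced (log2 fold change -1.33, SE 0.52, edgeR adjusted p = 0.583). The pseudogenes AT2G05715 and AT5G27771 and the protein coding gene AT1G61575 followed, with log2 fold changes of -1.03, -0.98 and -0.78. AT1G61575 passed the filter only through the mock libraries.

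Both spliceosomal snRNA genes that could be tested were lower in S5P induced than in S5P mock libraries, without passing the adjusted threshold. U1.5 (AT1G08115), a gene of the U1 snRNA of the major spliceosome, stood at 46.1, 19.3 and 36.0 CPM in S5P mock and 10.3, 8.63 and 16.4 CPM in S5P induced. Its log2 fold change was -1.35 (SE 0.41, edgeR adjusted p = 0.537). U12 (AT1G61275), of the minor spliceosome, stood at 36.6, 13.8 and 24.3 CPM in S5P mock and 9.70, 8.63 and 10.4 CPM in S5P induced. Its log2 fold change was -1.28 (SE 0.41, edgeR adjusted p = 0.580). Mock and induced libraries did not overlap for either gene, but the S5P induced 2 value was 1 read for both, and 3 reads in that library are 25.9 CPM. U12 passed the low-count filter only through its S5P mock libraries, and U1.5 through these and S5P induced 3. For U12 the direction and the lack of overlap thus follow from the filter, and for U1.5 they partly do. With S2P neither passed the filter. U1.5 was at 12.5, 31.2 and 15.0 CPM in S2P mock and 6.66, 13.0 and 0 CPM in S2P induced. U12 was at 12.5, 0 and 9.07 CPM in S2P mock and 4.85, 6.92 and 0 CPM in S2P induced, and both genes overlapped between these groups. The 3 snRNA members together, with U6acat on 20 reads, held 345 reads, and U1 genes have near-identical copies, so the count of U1.5 is uncertain.

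**Figure D5:**
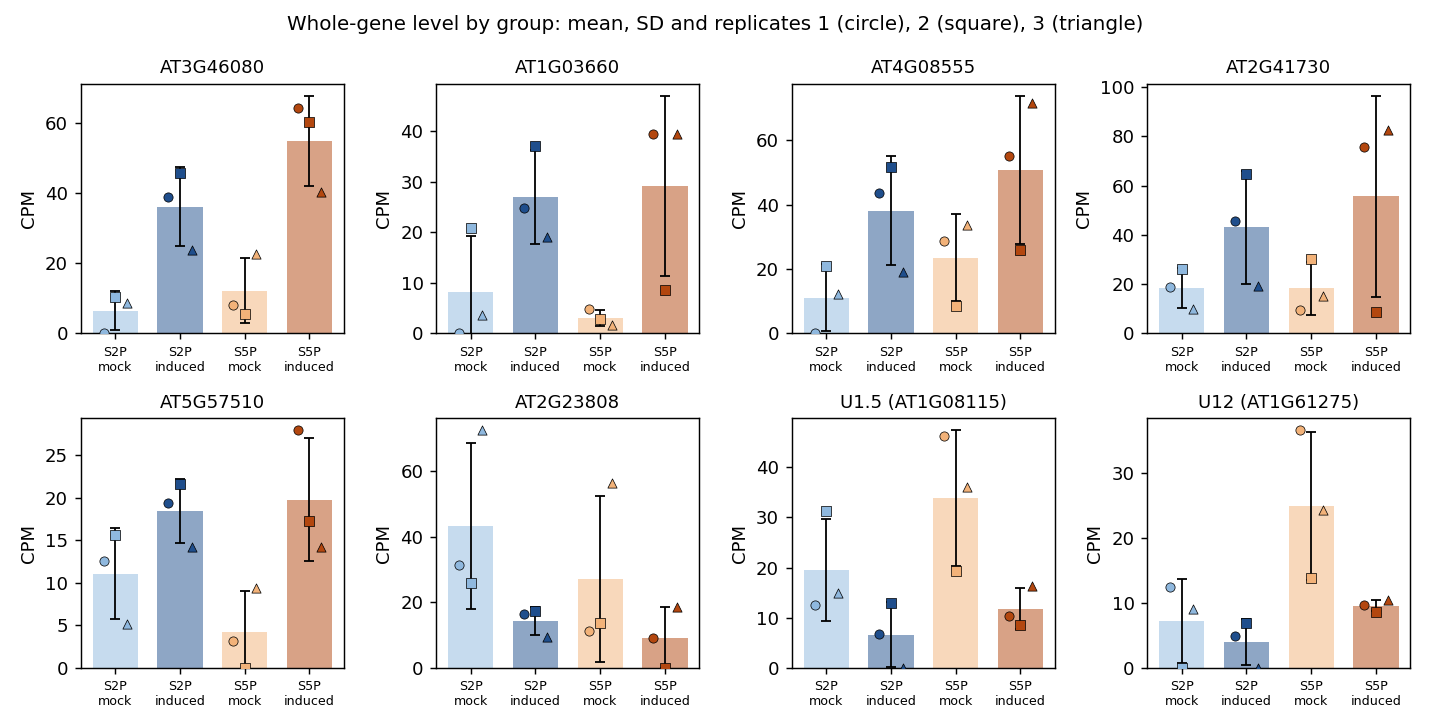
Whole-gene level in CPM (vertical axes, from 0) of 8 genes without a TSS window in the 4 groups (horizontal axes); bars are means, error bars SD (n = 3, cut at 0) and symbols the 3 replicates. AT3G46080 shows every induced library above every mock library for both antibodies, while U1.5 and U12 show every S5P induced library below every S5P mock library. For AT3G46080 with S2P and for U12 this lack of overlap is set by the low-count filter.

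The remaining members named for S5P were the snoRNA gene AT2G35742 in the higher direction and the protein coding genes AT4G27657 and AT3G04410 and the non-coding RNA gene AT1G70185 in the lower. AT2G35742 had a log2 fold change of 1.80 (SE 0.64) on 94 reads. AT4G27657 stood at 19.1, 8.27 and 61.8 CPM in S5P mock and 5.46, 0 and 11.2 CPM in S5P induced, a log2 fold change of -2.09 (SE 0.67, edgeR adjusted p = 0.578). AT3G04410 and AT1G70185 both had log2 fold changes of -1.15 (edgeR adjusted p-values of 0.608 and 0.642). AT3G04410 passed the filter only through the S5P mock libraries.

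S5P was compared with S2P in mock plants, to ask whether any member carries more of one phosphorylated form. Of 55 members tested none had an edgeR adjusted p under 0.05, nor did any gene (0%), and 5 had an unadjusted p under 0.05, against 2.27% of all genes. Of the 5, 2 were higher and 3 lower with S5P, against 0.86% and 1.41% of all genes. DESeq2 and limma voom also called 0 members. The groups did not overlap for 3 members, all lower, against 8.02% of all genes, 4.06% higher and 3.97% lower. U1.5 was higher with S5P, at 46.1, 19.3 and 36.0 CPM against 12.5, 31.2 and 15.0 CPM (log2 fold change 1.09, SE 0.38, edgeR adjusted p = 1.00), with overlapping groups. AGL85 (AT1G54760), a MADS-box gene, was lower with S5P, at 6.36, 8.27 and 14.1 CPM against 37.5, 26 and 20.9 CPM without overlap (log2 fold change -1.15, SE 0.44, edgeR adjusted p = 1.00). AGL85 passed the filter only through the S2P libraries, so its lack of overlap follows from the filter.

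Same-numbered mock libraries of the 2 antibodies deviated together, but same-numbered induced libraries correlated negatively, so the pairing by number is uncertain. A fit that held the replicate number as a block called 7 members (4 higher and 3 lower with S5P) and 230 genes in all. Higher with S5P in that fit was U1.5, with a log2 fold change of 1.10 and an edgeR adjusted p of 0.0405, and AT4G08555, with 1.37 and 0.0162. Lower with S5P were the unmatched identifier AT3G50682, with -1.47 and 1e-05, and the cysteine tRNA gene AT3G14855, with -0.96 and 0.00483. The others were AT3G06335, AT1G32920 and AT3G19030.

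The difference between the antibodies in the response to induction was tested in all 12 libraries. Of 233 members tested none had an edgeR adjusted p under 0.05, nor did any gene (0%), and 5 had an unadjusted p under 0.05, against 0.635% of all genes. In 3 of them the S5P effect was the higher and in 2 the lower, against 0.261% and 0.374% of all genes. DESeq2 and limma voom also called 0 members. The smallest p belonged to MIR856 (AT1G32992), at 18.8, 15.6 and 11.8 CPM in S2P mock and 2.42, 1.73 and 4.75 CPM in S2P induced, but 3.18, 0 and 6.26 CPM in S5P mock and 4.85, 17.3 and 3.73 CPM in S5P induced. These values rest on 68 reads, 30 of them in S2P mock 3 and 8 or fewer in any other library, and the 17.3 CPM is 2 reads. The difference of the log2 fold changes, S5P minus S2P, was 2.56 (SE 0.96, edgeR adjusted p = 1.00). AT1G63280, LCR73 and AT4G39675 followed in that direction with 1.95, 1.89 and 1.58. The glutamate tRNA gene AT1G09110, AT2G15830 and LCR44 led the opposite direction with -1.83, -1.53 and -2.17. AT2G15830 had 0 reads in S2P mock 1 and 2, and its value was -5.77 without S2P mock 3.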

How the data were processed

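The authors deposited raw whole-number read counts per gene for 3 windows in 12 libraries, without normalization. Per the submitters' processing notes, Trimmomatic and HTSeq were used with genome build TAIR10. Which aligner and window bounds were used is not given in the sources used. Left out were the 5 counter lines that name no gene and the 279 organelle genes (0.329% to 5.35% of gene reads), both from library sizes and from tests. CPM was computed from the deposited counts as reads per 1000000 nuclear whole-gene reads.

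Gene classes, names and neighbours came from a RefSeq table (TAIR10.1), which matched 32823 nuclear genes; its coordinates and lengths are not reported. The members and gene lists were chosen with earlier results of these data known.

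Whole-gene counts of all nuclear genes were fitted with edgeR 4.0.16 (quasi-likelihood test, TMM, filterByExpr with a minimum count of 10, R 4.3.3), and p-values were Benjamini-Hochberg adjusted over all genes tested, with a threshold of 0.05. Scripts were tested on simulated data with 200 changed genes. Alternatives used DESeq2 1.42.0, limma 3.58.1, other scalings, no filter, a replicate block and leaving out each library. Shares were compared by exact permutation tests. Genes named are TFIIS, the 20 members with the highest mean CPM, up to 5 members per direction with the smallest p in each comparison, and the best covered members of each class or family. AT5G24640, AT2G41473 and genes called only under an alternative were named after their values were seen.

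No label ties the replicates to separate cultures; p-values therefore reflect only how far these libraries differ, which may be technical. Reads carry no molecular identifiers and are not independent molecules. Strand use is not stated, so reads of overlapping genes cannot be told apart. Deviations from group means of same-numbered S2P and S5P mock libraries correlated at 0.127, 0.191 and 0.299 (23793 genes), each above 0.1, and these libraries were taken as paired. Same-numbered induced libraries of the 2 antibodies correlated at -0.194, -0.512 and -0.356, while S2P induced 2 and S5P induced 3 correlated at 0.609. The pairing of the mock libraries is therefore uncertain, and the paired p-value and the replicate block rest on it. Between mock and induced libraries not every same-numbered pair exceeded 0.1, so these were not taken as paired. This rests on the labels' numbers: the deposited names of induced replicate 3 carry another number, and S2P mock 3 correlated with S2P induced 2 (0.243) and S2P mock 2 with S2P induced 3 (0.140). No promoter motif search was run.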

Additional observations from a re-analysis of the deposited data

How the results depend on the processing

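The counts of members called were 0 under RLE, upper quartile and library-total scaling, limma voom, organelle genes kept in and factors from genes with a TSS window in all 4 fits, and in the interaction under every alternative run. Without the low-count filter 5 of 3065 members were called with S2P (72 of 32344 genes), 2 of 3060 with S5P (28 of 32344 genes) and 1 of 3067 between the antibodies (2 of 32347 genes). DESeq2 called 1 with S5P. With the outside-gene share as a covariate, an alternative chosen after seeing the data, 6 were called with S2P and 11 with S5P. The replicate block gave 7 between the antibodies and changed no other count of members called. Its differences in share were -0.0043, 0.0112 and -0.0642 percentage points, as in the unpaired test. Leaving out 1 library at a time gave 0 to 12 members with S2P, 0 to 4 with S5P (4 without S5P induced 2, namely AT3G46080, AT2G41730, AT1G03660 and AT5G24640, among 302 of 26076 genes), and 0 to 0 between the antibodies and in the interaction. AT5G24640, protein coding, stood at 0, 0 and 3.94 CPM in S2P mock and 21.2, 27.7 and 14.3 CPM in S2P induced, the last on 3 reads. With S5P it stood at 3.18, 2.76 and 6.26 CPM in mock and 26.1, 0 and 34.3 CPM in induced libraries. The library left out above, S5P induced 2, thus held 0 of its reads. In the fit without that library, AT1G03660 and AT5G24640 passed the filter only through the other induced libraries, so their direction follows from the filter. AT2G41473 stood at 6.25, 5.21 and 12.6 CPM in S2P mock, on 1, 1 and 32 reads. In S2P induced it stood at 0.606, 0.865 and 0 CPM, on 1, 1 and 0 reads.

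The difference in the share of reads on members ran from -0.0994 to 0.108 percentage points with S2P, from -0.255 to 0.197 with S5P and from -0.131 to -2.93e-05 between the antibodies when 1 library was left out. The sign changed for S2P without mock 2 (0.0466) or induced 2 (0.108), for S5P without mock 3 (-0.0530) or induced 2 (-0.255), and for S5P without the 10 members with the most reads (-0.0170). Between the antibodies the log2 fold change of TFIIS, -0.04, was 0.00246 with DESeq2 and ran from -0.23 to 0.22 when 1 library was left out, turning positive without S2P mock 2 (0.050), S2P mock 3 (0.22) and S5P mock 2 (0.025). That of AT5G35698, 0.71, ran from -0.077 (without S2P mock 3) to 1.03. The median log2 fold change of members that passed the filter with S2P was 0.91, but -0.07 over 3065 members without the filter. The cause of these changes was not tested. Depth limits all of this, since 3 reads are 25.9 CPM in the shallowest library.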
